A study of Mus musculus with 3 samples.

Results

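The regions described here are 3036 bins of 1 kb on mouse chromosomes 1 to 19 in which the ChIP-seq reads for TET2, OGT and H2B S112GlcNAc were all dense. They are called shared bins below. A bin was taken when it held at least 10 distinct 5′ ends in TET2, 5 in OGT and 8 in H2B S112GlcNAc, with under 40 reads in each library so that pile-ups of repeated reads were left out. A distinct 5′ end, or position, is 1 combination of start and strand, moved 100 bp towards the middle of the fragment. The 3036 bins were found among 2395162 usable bins, those in 10 kb stretches with a read in any library. The rule used the counts of all 3 libraries, so those counts are a description and carry no test.

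The cells were mouse embryonic stem (ES) cells of the C57BL/6 strain, grown without feeder cells on gelatin with serum and ESGRO. The 3 libraries differed in the antibody alone, as far as the labels say: an in-house antibody against mouse TET2, a commercial antibody against OGT and an antibody against H2B S112GlcNAc that the labels credit to a published source. No treatment or mutation is named for any of them, and the labels do not name the ES line. Each antibody had 1 library, no input or IgG library was used here, and no comparison below has a replicate check. Intervals are exact 95% intervals that cover counting error and nothing else. Bins are not replicates and nearby bins are not independent, so the intervals are narrower than the real uncertainty.

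TET2 belongs to the dioxygenases that convert 5-methylcytosine in DNA to 5-hydroxymethylcytosine and further oxidised bases, a step in the removal of DNA methylation. OGT is the enzyme that adds the sugar O-GlcNAc to serines and threonines of nuclear and cytoplasmic proteins. It binds TET proteins, and histone H2B carrying the sugar on a serine near its C-terminus is one of its reported products on chromatin. Bins dense in all 3 libraries are thus places where the enzyme, its partner and the modified histone could be looked for together in these cells.

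Depth on chromosomes 1 to 19 was 3188332 positions in TET2, 1814416 in OGT and 3886030 in H2B S112GlcNAc. A usable bin held on average 1.33, 0.758 and 1.62 positions. The 3 thresholds therefore stood at 7.51, 6.60 and 4.93 times the mean of their library, so the H2B S112GlcNAc threshold was the least demanding. Among the 2394531 usable bins under the read limit, 11793 reached the threshold for TET2 (0.492%), 20803 that for OGT (0.869%) and 22974 that for H2B S112GlcNAc (0.959%). TET2 and OGT were both at threshold in 4649 bins (0.194%), TET2 and H2B S112GlcNAc in 5672 (0.237%), and OGT and H2B S112GlcNAc in 5688 (0.238%). All 3 were at threshold in 0.127% of bins. The shared bins made up 25.7% of the TET2 bins (25 to 26.5), 14.6% of the OGT bins (14.1 to 15.1) and 13.2% of the H2B S112GlcNAc bins (12.8 to 13.7).

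The shared bins held 47396 TET2 positions, which is 1.49% of that library, 23426 OGT positions (1.29%) and 40055 H2B S112GlcNAc positions (1.03%). TET2 counts in them ran from 10 to 39 with a median of 14. OGT counts ran from 5 to 31 with a median of 7. H2B S112GlcNAc counts ran from 8 to 38 with a median of 12. Of the members, 392 stood at exactly 10 for TET2, 749 at exactly 5 for OGT and 399 at exactly 8 for H2B S112GlcNAc. Just outside, 396 bins missed by 1 TET2 position alone, 814 by 1 OGT position and 443 by 1 H2B S112GlcNAc position. The counts thus ran on across each threshold without a gap.

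At the edge itself, 31 bins stood exactly at 10, 5 and 8. The first is on chromosome 1 at 34201001 to 34202000, where the bins 5 kb away averaged 3.5 TET2, 0 OGT and 1.5 H2B S112GlcNAc positions. Another is on chromosome 1 at 85317001 to 85318000, where the same neighbours averaged 3, 1 and 8 positions, so H2B S112GlcNAc was no denser in the bin than beside it. Just below the edge, the bins at 90152001 to 90153000 and 99558001 to 99559000 of chromosome 1 had 9 TET2, 5 OGT and 8 H2B S112GlcNAc positions. Those at 74850001 to 74851000 and 137043001 to 137044000 had 10, 4 and 8, and those at 9230001 to 9231000 and 46640001 to 46641000 had 10, 5 and 7.

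The shared bins were set beside the bins 5 kb to either side, leaving out neighbours that were themselves shared bins or pile-ups. The ratios are pooled, with the mean of all shared bins over the mean of all kept neighbours. No neighbour was kept for 138 shared bins, which still count in the pooled mean. TET2 averaged 15.6 positions in shared bins and 2.76 in the 5583 bins 5 kb away, a ratio of 5.66 (5.55 to 5.76). OGT averaged 7.72 in shared bins and 1.5 in the neighbours, a ratio of 5.16 (5.03 to 5.29). H2B S112GlcNAc averaged 13.2 in shared bins and 3.28 in the neighbours, a ratio of 4.02 (3.95 to 4.10). The rule alone makes these ratios high. Among 2685 shared bins with both neighbours kept, TET2 was above both neighbours in 2636, OGT in 2577 and H2B S112GlcNAc in 2564, and all 3 were in 2455 (91.4%). Taken bin by bin, ratios were formed with 1 added to the count and to the neighbours' mean. Their medians over the 2685 bins were 5 in TET2, 3.67 in OGT and 3.5 in H2B S112GlcNAc.

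**Figure D1:**
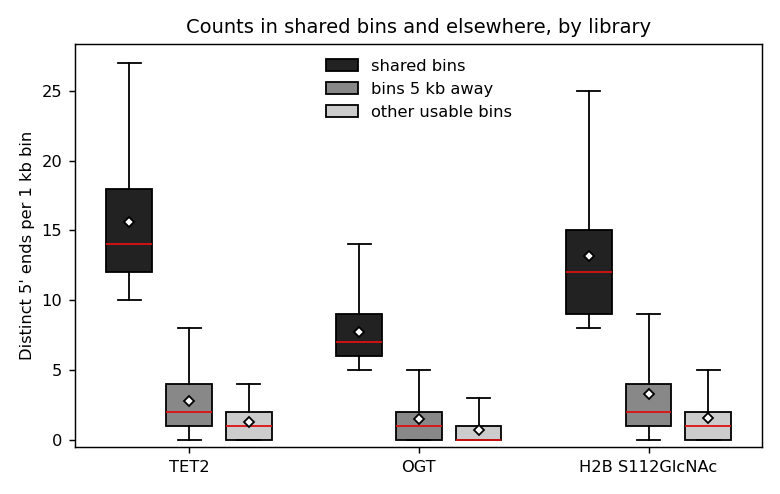
Distinct 5′ ends per 1 kb bin for each library in the 3036 shared bins, the 5583 bins 5 kb away and the other usable bins. Boxes span the quartiles with the median in red, whiskers run from the 5th to the 95th percentile and diamonds mark the mean; the shared bins start at the thresholds of 10, 5 and 8, and the bins 5 kb away have medians of 2, 1 and 2.

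The neighbours were themselves denser than the genome at large. The bins 5 kb away averaged 2.76 TET2, 1.5 OGT and 3.28 H2B S112GlcNAc positions, against 1.29, 0.728 and 1.58 in all other usable bins. With neighbours taken further out the ratios were higher: at 50 kb they were 6.44 (6.32 to 6.56) in TET2, 5.98 (5.82 to 6.14) in OGT and 4.76 (4.67 to 4.84) in H2B S112GlcNAc. At 1 kb they were 3.72, 3.87 and 3.04, and at 2 kb 5.29, 4.98 and 3.94. From 2 kb out to 50 kb the ratios changed less per kb than between 1 and 2 kb.

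Pooled over all shared bins, few reads repeated the start and strand of another. The number of reads per position was 1.08 for TET2 in shared bins, 1.07 for OGT and 1.07 for H2B S112GlcNAc. In the bins 5 kb away it was 1.06, 1.06 and 1.05. The read limit bears on this directly: the 530 bins that reached all 3 thresholds but held 40 or more reads in a library had 6.18, 4.90 and 6.79 reads per position. Pile-up bins still lay near some members. Of the shared bins, 194 (6.39%) were within 10 kb of one of the 631 pile-up bins, against 0.325% of usable bins. Stretches of 10 kb without any read were within 50 kb of 5.60% of shared bins and of 0.557% of usable bins.

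Whether 1 library was dense where only the other 2 chose the bins is a measure that its own count did not fix, apart from the read limit. In 5688 bins at threshold for OGT and H2B S112GlcNAc, TET2 had a median of 10 positions, against 2 in the bins 5 kb away. The TET2 ratio there was 4.05 (3.99 to 4.11), and 53.4% of these bins (52.1 to 54.7) reached the TET2 threshold against 2.91% (2.60 to 3.25) of the bins 5 kb away. In 5672 bins chosen by TET2 and H2B S112GlcNAc, OGT had a median of 5 against 1, a ratio of 3.78 (3.71 to 3.86), and 53.5% (52.2 to 54.8) reached the OGT threshold against 4.63% (4.24 to 5.05). In 4649 bins chosen by TET2 and OGT, H2B S112GlcNAc had a median of 9 against 2, a ratio of 3.40 (3.35 to 3.45), and 65.3% (63.9 to 66.7) reached its threshold against 6.92% (6.4 to 7.48).

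Bins without any read of the third library were few. TET2 had none in 17 of its 5688 bins (0.299%), OGT in 91 of 5672 (1.6%) and H2B S112GlcNAc in 5 of 4649 (0.108%). In the bins 5 kb away these shares were 17.2%, 32.5% and 13.2%. The ratios of the third library also rose with the counts of the other 2. Where the lower of the other 2 stood at 1 to 1.25 times its threshold, the ratio was 3.44 in TET2, 3.14 in OGT and 2.89 in H2B S112GlcNAc. Where it stood at 2 times or more, the ratio was 7.38 (6.96 to 7.82) in TET2 in 354 bins, 7.02 (6.50 to 7.59) in OGT in 335 and 5.96 (5.62 to 6.32) in H2B S112GlcNAc in 286. Without an input library the ratios also hold any density that is the same whatever the antibody.

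**Figure D2:**
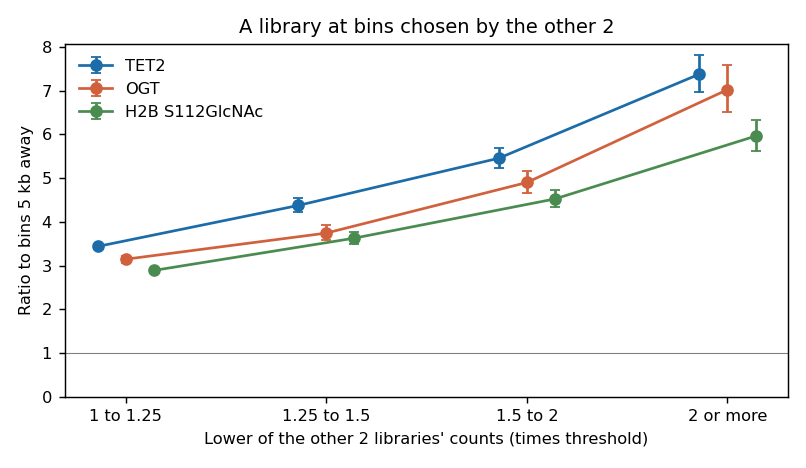
Ratio of a library at bins chosen by the thresholds of the other 2 libraries to the bins 5 kb away (vertical axis), by the lower of the other 2 counts in times its threshold (horizontal axis). Points are pooled ratios with exact 95% intervals; in each library the ratio climbs over the 4 classes, for TET2 from 3.44 to 7.38.

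The rule confines all 3 signals of a member to 1 kb, so distances inside it are small by construction and are given as a description. The distance between the median position of TET2 and that of OGT in a bin had a median of 90 bp, with quartiles of 36 and 168. TET2 and H2B S112GlcNAc were 81 bp apart and OGT and H2B S112GlcNAc 96 bp. Density profiles were drawn for 2082 shared bins with no other within 10 kb and no pile-up bin within 5 kb. Centred on TET2, the central 100 bp held OGT at 11.8 times (11.4 to 12.3) and H2B S112GlcNAc at 8.53 times (8.29 to 8.77) their density at 2 to 3 kb. At 500 bp from the centre OGT stood at 2.62 and H2B S112GlcNAc at 2.32, and at 1000 bp they stood at 1.26 and 1.17.

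Centred on OGT, TET2 reached 12.7 times (12.4 to 13.0) and H2B S112GlcNAc 8.03 times (7.79 to 8.26) the density at 2 to 3 kb. Centred on H2B S112GlcNAc, TET2 reached 12.2 times (11.9 to 12.5) and OGT 11 times (10.6 to 11.4). A library centred on its own reads is sharper by construction, and the other libraries stayed above the midpoint between flank and summit over 300 to 500 bp. That width was 300 bp for OGT centred on TET2 and 500 bp for each of the other 5 pairings. The profiles were read in steps of 100 bp, which is too coarse to compare the libraries by width. The bins are 1 kb wide and were chosen for height, so a broader form of the mark elsewhere is not described by these profiles.

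**Figure D3:**
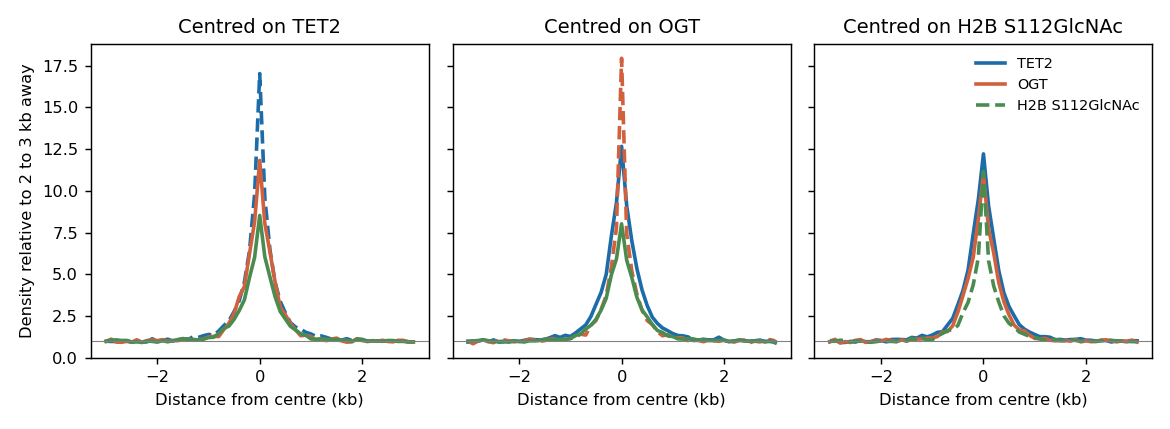
Density of each library around the centre of 2082 isolated shared bins, relative to its own density 2 to 3 kb away, with the centre set by the median position of TET2, OGT or H2B S112GlcNAc (left to right). The dashed line is the library that set the centre; the other 2 lines peak at 8.03 to 12.7 times and return close to 1 by 1.5 kb.

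The spacing between strands was not a condition of the rule, but it was read from the 5′ ends that the rule counted. The rule also moved these ends by strand, so the spacing is a description and carries no test. In ChIP-seq the 5′ ends on the plus strand lie to the left of those on the minus strand by about the fragment length. The labels' protocols give ligation products between 200 and 600 bp, adaptors included. Pairs of a plus-strand and a minus-strand 5′ end within a locus of shared bins and 500 bp on each side were most frequent at a distance of 42 bp in the TET2 library, 41 bp in the OGT library and 42 bp in the H2B S112GlcNAc library. The reads are 44 bp long, so the 2 ends at this distance are opposite reads over nearly the same bases. With both ends inside 1 shared bin the distances were 46, 46 and 45 bp.

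The excess at the read length differed between libraries and places. In shared bins, pairs within 10 bp of the read length less 1 were 1.27 times as frequent per bp for TET2 as pairs at 100 to 150 bp. For OGT this was 2.01 times and for H2B S112GlcNAc 1.75 times. In the bins 5 kb away, each counted once (5520 bins), the values were 0.970, 1.16 and 1.19. High counts chose the shared bins and not these neighbours, so this is not a like comparison. From 75 bp on, TET2 pairs were most frequent at 127 bp over all shared bins, but at 75 bp itself in the 2120 isolated bins and at 134 bp in the 916 clustered ones. OGT and H2B S112GlcNAc pairs over all shared bins were most frequent at 75 bp itself. Pairs of 1 bin are not independent and these values have no interval.

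Bins dense in a single library were set beside the shared bins. The TET2 value of 1.27 in shared bins stood beside 1.11 in 403 bins with 10 or more TET2 positions and 0 OGT positions. The OGT value of 2.01 in shared bins stood beside 2.30 in 4896 bins with 5 or more OGT and at most 2 TET2 positions. The OGT excess was thus also found outside shared bins, in bins that were likewise chosen by their OGT count. The H2B S112GlcNAc value of 1.75 in shared bins stood beside 1.25 in the 403 TET2 bins and 1.17 in the 4896 OGT bins. TET2 reads in the OGT bins gave 0.919, from 896 pairs. Isolated shared bins had higher values (1.35, 2.35 and 2.06) than clustered ones (1.08, 1.47 and 1.32). What gives rise to these pairs was not tested.

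**Figure D4:**
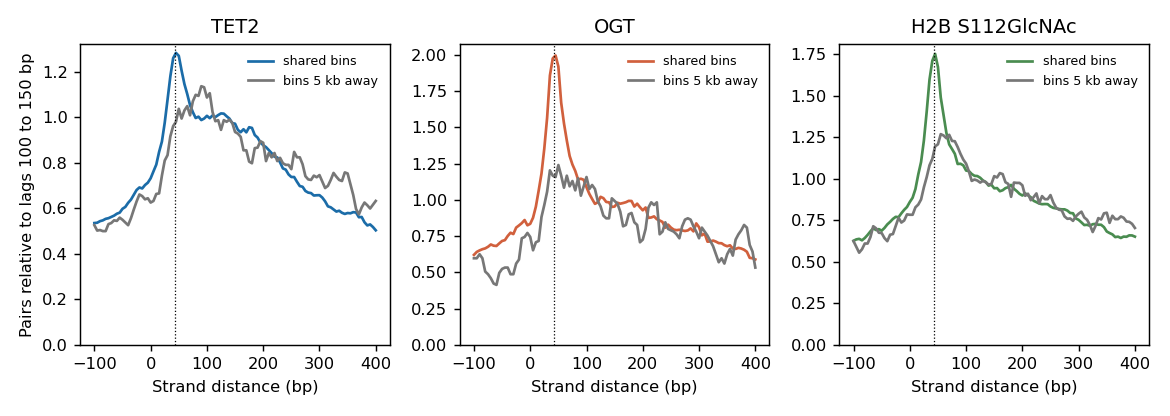
Pairs of plus-strand and minus-strand 5′ ends inside 1 bin, relative to their mean at 100 to 150 bp (vertical axis), by the distance from the plus-strand to the minus-strand end (horizontal axis, smoothed over 21 bp). Coloured lines are shared bins and grey lines the bins 5 kb away. The dotted line marks the read length less 1, and the shared bins peak just beyond it, at 46 bp in TET2, 46 bp in OGT and 45 bp in H2B S112GlcNAc.

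Both strands were present in nearly all members. The share of positions on the plus strand had a median of 52.2% for TET2 (5th to 95th percentile 26.7 to 81.6), 53.8% for OGT (17.8 to 87.5) and 50% for H2B S112GlcNAc (25 to 80). All positions were on 1 strand in 30 bins with TET2, in 158 with OGT (5.20%) and in 40 with H2B S112GlcNAc. OGT also had the fewest positions per bin, and the part of the low counts in this was not tested.

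Along the chromosomes most members stood alone at the scale of 2 kb. Merging bins with starts at most 2 kb apart gave 2572 loci, of which 2354 (91.5%) held 1 bin, 150 held 2, 56 held 3 to 5 and 12 held 6 or more. Those 12 held 182 of the bins. Another shared bin lay within 10 kb of 916 members, 30.2% (28.5 to 31.8), and the median distance to the nearest was 71 kb. Within 100 kb the share was 56.1%. Of 2055 windows of 100 kb with a shared bin, 28 had 8 or more and held 443 members (14.6%). Of bins dense in TET2 with 0 OGT, 0.993% (0.271 to 2.52) had another of their kind within 10 kb, and of those dense in OGT with at most 2 TET2 positions 10.4% (9.54 to 11.3). A set that is larger per kb has closer members, and the 403 TET2 bins are far fewer than the 3036 shared bins, while the 4896 OGT bins are more. Both sets also leave out, by definition, bins dense in TET2 and OGT together. Their shares are therefore not a like comparison with that of the shared bins.

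Isolated and clustered members differed against their surroundings. The 2120 isolated bins stood at 6.63 (6.48 to 6.78) in TET2, 5.86 (5.68 to 6.05) in OGT and 4.48 (4.38 to 4.58) in H2B S112GlcNAc relative to the bins 5 kb away. The 916 clustered bins stood at 3.93 (3.81 to 4.05), 3.82 (3.66 to 3.98) and 3.10 (3.01 to 3.19). Clustered bins held more positions themselves, with means of 16.6, 8.83 and 16.1 against 15.2, 7.24 and 11.9 in isolated bins. The bins 5 kb away averaged 4.23 TET2, 2.31 OGT and 5.20 H2B S112GlcNAc positions around clustered bins, against 2.29, 1.23 and 2.66 around isolated ones. The thresholds are fixed counts, so lower ratios in denser surroundings follow in part from the rule.

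The largest locus was on chromosome 8 at 126061001 to 126148000, where 79 of 87 consecutive bins were shared bins. TET2 averaged 20.3 positions per bin across it, against 2.80 in the bins 20 to 60 kb outside, a ratio of 7.25. OGT averaged 9.71 inside and 1.5 outside, a ratio of 6.48, and H2B S112GlcNAc 17.9 inside and 3.08 outside, a ratio of 5.83. Every bin of the block was filled in every library, with at least 8 TET2, 3 OGT and 7 H2B S112GlcNAc positions, and reads per position were 1.01 in all 3. All 3 libraries were thus raised over the whole 87 kb, with 5th and 95th percentiles of 10 and 32.4 positions per bin for TET2. The next loci were 16 bins on chromosome 8 at 19974001 to 19991000, with means of 16.1, 8.88 and 20.2 positions per bin, and 15 bins on chromosome 1 at 87481001 to 87498000, with 15, 8.33 and 20.1. At these 2 loci H2B S112GlcNAc had the highest mean per bin, and at the largest locus TET2 did.

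The chromosomes differed in their number of members. Chromosome 12 had 401, or 3.41 per 1000 usable bins (3.09 to 3.76), and chromosome 8 had 325, or 2.60 (2.33 to 2.90). Pooled over all chromosomes the density was 1.27. The lowest values were 0.641 (0.506 to 0.8) on chromosome 14 and 0.659 (0.537 to 0.799) on chromosome 3. Chromosome 12 thus held 13.2% of the shared bins and 4.91% of the usable ones. The first megabase with usable bins of each chromosome held 70 members, 3.73 per 1000, and the last megabase 33, or 1.74 per 1000.

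The excess on chromosome 12 fell in long stretches that were dense in every library. Density was measured in 2401 windows of 1 Mb, outside shared bins and pile-ups, and 128 windows reached 2 times the median window in all 3 libraries. These read-rich windows held 5.29% of usable bins and 875 shared bins (28.8%), which is 6.91 per 1000 inside against 0.953 per 1000 outside. Bins dense in TET2 or OGT but not in both also lay in these windows. The windows held 26.8% of the 403 bins dense in TET2 with 0 OGT. They also held 21.1% of the 4896 bins dense in OGT with at most 2 TET2 positions. On chromosome 12, 23 windows were read-rich and held 320 of the 401 members. They formed runs at 80000001 to 89000000, 100000001 to 102000000 and 103000001 to 115000000. In the last run the median window stood at 3.12 times the genome's median in TET2, 3.0 in OGT and 3.12 in H2B S112GlcNAc, and in the first at 2.82, 2.67 and 2.77. Outside these windows chromosome 12 had 81 members, 0.856 per 1000, against 0.953 for the genome outside read-rich windows. No interval was taken for these values, so they are not read as a difference.

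The ratios to bins 5 kb away were lower inside read-rich windows than outside, at 4.23 (4.11 to 4.36) in TET2, 3.63 (3.48 to 3.79) in OGT and 2.97 (2.89 to 3.07) in H2B S112GlcNAc. Outside them they were 6.54 (6.39 to 6.69), 6.11 (5.92 to 6.31) and 4.64 (4.54 to 4.75). With fixed counts as thresholds, a bin in a dense window is taken at a lower ratio, so this difference follows in part from the rule. Without read-rich windows 2161 shared bins were left and chromosome 8 led, with 187 members or 1.61 per 1000, and the range over chromosomes was from 0.641 to 1.61. Counting isolated members outside read-rich windows alone, chromosome 8 had 0.699 per 1000 and chromosome 12 had 0.719, and the highest were 1.05 on chromosomes 11 and 19. Beyond these splits, the part of the megabase density in the number of shared bins was not tested.

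The 5 megabases with the most members lay on chromosomes 8 and 12. The window of chromosome 8 from 126000001 to 127000000 had 82 shared bins and held the largest locus. That from 19000001 to 20000000 had 74, and its density was 1.67, 1.76 and 1.84 times the median for TET2, OGT and H2B S112GlcNAc. On chromosome 12 the windows from 112000001, 113000001 and 114000001 had 42, 43 and 47. Windows closer to the median in mean density could also hold many members. Chromosome 6 from 47000001 to 48000000 had 37 at 1.23, 1.24 and 1.27 times the median. Chromosome 5 from 15000001 to 16000000 had 31 at 1.22, 1.20 and 1.28 times. In both windows the members lay close together in a small part of the megabase. The window mean leaves out shared bins and covers the whole megabase, so it does not describe the density beside these members. No shared bin was found in 1310 of the 2401 windows.

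**Figure D5:**
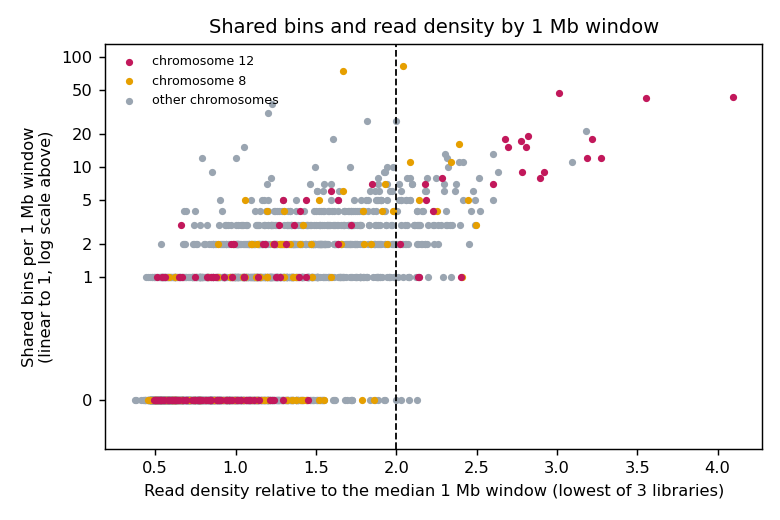
Number of shared bins per 1 Mb window (vertical axis, linear up to 1 and logarithmic above) by the read density of the window outside those bins relative to the median window (horizontal axis, lowest of the 3 libraries). Each point is 1 of 2401 windows and the dashed line marks 2 times the median; chromosome 12 windows from 112000001 to 115000000 lie at 3.01 to 4.09 times with 42 to 47 shared bins.

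The members with the highest ratio over their neighbours, averaged over the 3 libraries, were single bins whose kept neighbours 5 kb away were nearly empty. On chromosome 4 at 3007001 to 3008000 there were 24 TET2, 19 OGT and 31 H2B S112GlcNAc positions, and the 1 neighbour kept had 0 in each library. On chromosome 7 at 85058001 to 85059000 there were 28, 23 and 30 positions, against neighbours averaging 0.5, 0 and 1. On chromosome 10 at 11072001 to 11073000 there were 28, 12 and 23, against 0, 0 and 0.5. Reads numbered 26, 21 and 33 at the bin on chromosome 4, 31, 28 and 38 at that on chromosome 7, and 32, 12 and 25 at that on chromosome 10.

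Of the other 3 in this ranking, the bin on chromosome 17 at 79487001 to 79488000 had 25 TET2, 23 OGT and 27 H2B S112GlcNAc positions, against 1, 0.5 and 0 in its neighbours. That on chromosome 17 at 51099001 to 51100000 had 24, 9 and 22, with both neighbours at 0 in all 3 libraries. That on chromosome 6 at 103264001 to 103265000 had 23, 11 and 28, against 0, 0 and 0.5. All 6 had at least 9 positions of every library in 1 kb. With neighbours at or near 0 the ratios themselves are set by the neighbours' few counts and are not printed.

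The 3 libraries took unequal shares from bin to bin. After scaling each count to its library's total, TET2 made up a median of 38.8% of the sum (range 19.3 to 68.3), OGT 33.2% (16.3 to 56.9) and H2B S112GlcNAc 26.3% (11.4 to 51.9). The thresholds in times of the library mean run in the same order, so the medians follow in part from the rule. The highest TET2 share was on chromosome 18 at 80403001 to 80404000, holding 33 TET2, 5 OGT and 8 H2B S112GlcNAc positions. The next was on chromosome 6 at 34325001 to 34326000, with 36, 6 and 11. At both bins OGT was within 1 of its threshold.

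OGT had its highest shares on chromosome 8 at 94708001 to 94709000, holding 12 TET2, 17 OGT and 13 H2B S112GlcNAc positions, and on chromosome 5 at 112058001 to 112059000, with 12, 16 and 12. H2B S112GlcNAc had its highest shares on chromosome 10 at 57690001 to 57691000, with 13, 6 and 31, and on chromosome 1 at 85087001 to 85088000, with 11, 7 and 29. The last bin lay in dense surroundings, whose neighbours averaged 8.5 TET2, 9 OGT and 9.5 H2B S112GlcNAc positions. There TET2 and OGT were about as dense 5 kb away as in the bin, and H2B S112GlcNAc was not.

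The highest single counts were 39 TET2 positions on chromosome 8 at 126105001 to 126106000, inside the largest locus, and 38 on chromosome 1 at 173010001 to 173011000. OGT reached 31 on chromosome 13 at 92813001 to 92814000 and 26 on chromosome 11 at 3064001 to 3065000. H2B S112GlcNAc reached 38 on chromosome 18 at 13456001 to 13457000 and 37 on chromosome 1 at 173011001 to 173012000. The 2 bins of chromosome 1 adjoin each other, and OGT had 25 and 14 positions in them. The limit of 40 reads sets a ceiling on all of these, and 84 members had 35 to 39 reads in their highest library.

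Across the 3036 shared bins the counts of the libraries were moderately correlated. Pearson's r of log2 counts was 0.397 for TET2 and OGT, 0.429 for TET2 and H2B S112GlcNAc and 0.504 for OGT and H2B S112GlcNAc. The rank correlations (Spearman's rho) were 0.323, 0.367 and 0.413. These are descriptions over bins that share their chromosome's read density and were cut off at both ends by the rule, so they carry no test. Gene annotation and sequence of mm9 were not used here, so the members are given by position alone.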

How the data were processed

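The deposited files list aligned reads of 44 bp, 1 per line, with start, end and strand as the other columns used. Per the submitters' processing notes, the authors used the build mm9, CASAVA 1.4 and Bowtie 0.12.2, in roles that the notes do not state. The treatment of multiple matches is likewise not given in the sources. The OGT file names chromosomes by sequence accessions of the same assembly. On chromosomes 1 and 19, TET2 and OGT had 1389 positions in common, and 1115 after a move of 1 bp.

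Reads were counted with Python 3.11.15, numpy 2.4.6, pandas 2.3.3 and scipy 1.17.1. Intervals are exact conditional binomial (ratios), Clopper-Pearson (shares) or Poisson (densities). Strand distances were smoothed over 21 bp and searched from 0 to 400 bp. Counting, ratios and distances were tested on simulated reads, with separate planted bins on an even background. Pile-ups, dense stretches and an excess of pairs at the read length were not simulated. Bins named in the text are those of highest ratio, locus size, count and library share, and those at the thresholds.

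The members, rules and named bins were chosen with earlier results of these data known. Read-rich windows, isolated bins and pairs inside 1 bin were chosen after the counts were seen.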

Additional observations from a re-analysis of the deposited data

Results flagged for a closer look

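Chromosome X was outside the rule and entered no comparison of the report. On it 55 bins met the same thresholds and read limit, or 0.339 per 1000 usable bins (0.255 to 0.441). Chromosome X was also sparser in reads, with means of 0.655 TET2, 0.382 OGT and 0.829 H2B S112GlcNAc positions per usable bin. The ratios to bins 5 kb away were 6.23 (5.39 to 7.21), 4.82 (4.01 to 5.81) and 4.77 (4.17 to 5.47).

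The read limit left out 530 bins of chromosomes 1 to 19 that reached all 3 thresholds, and these bins are no members. They held 6.18 TET2, 4.90 OGT and 6.79 H2B S112GlcNAc reads per position. Of these, 63 had 40 to 44 reads in the highest library.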

How the results depend on the processing

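No paired analysis was possible because no antibody had more than 1 library. Of 91 values under an alternative, 42 stayed within 1.5 times (counts), 20 bp (strand distances) or the 95% interval (other values), and 49 moved. Values below are in the order TET2, OGT, H2B S112GlcNAc; "chosen by the others" means bins chosen by the other 2 libraries. No strand distance moved by over 20 bp. Stricter thresholds of 15, 8 and 12 left 596 shared bins, fewer by construction.

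The share with another within 10 kb was 34.9% with all reads counted, 35.1% with no read limit, 39.9% with stricter thresholds, 26.7% without bins near pile-ups and 27.2% without read-rich windows.

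With all reads counted the ratios to bins 5 kb away were 37.5, 39.3 and 36.7, and chosen by the others 21, 23.3 and 26.5. With no read limit they were 11.7, 13.5 and 9.72, and chosen by the others 7.55, 8.80 and 7.55. Both settings let pile-ups in. With bins 10 kb away they were 5.89, 5.44 and 4.21, and chosen by the others 4.19, 3.92 and 3.53. At the OGT depth with 5 in all 3 libraries they were 5.48, 4.88 and 4.62, and chosen by the others 4.15, 3.37 and 3.11. With stricter thresholds the OGT and H2B S112GlcNAc ratios were 5.70 and 4.41, and chosen by the others 4.93, 4.83 and 4.20.

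With bin starts moved by 500 bp the TET2 and H2B S112GlcNAc ratios were 5.77 and 4.12, and chosen by the others 4.11, 3.86 and 3.47. With no shift the OGT and H2B S112GlcNAc ratios were 5.30 and 4.11, and H2B S112GlcNAc chosen by the others 3.47. Away from pile-ups the ratios chosen by the others were 3.98, 3.70 and 3.32. Isolated bins had 6.63, 5.86 and 4.48. For changes not said to follow by construction, the cause was not tested. OGT was the shallowest library, and its threshold is 5 positions.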
